A study of Homo sapiens with 6 samples.

Results

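The genes described here encode 9 enzymes of serine synthesis and of the folate-dependent one-carbon pathway: PHGDH, PSAT1, PSPH, SHMT1, SHMT2, MTHFD1, MTHFD2, MTHFD1L and TYMS. They were chosen by their place in the pathway and by symbol. All 9 are among the 39012 genes of the deposited expression table. PHGDH, PSAT1 and PSPH make serine from the glycolytic intermediate 3-phosphoglycerate. The serine hydroxymethyltransferases then pass a carbon of serine to tetrahydrofolate. Between them the MTHFD enzymes convert that carbon between folate-bound forms and formate in the cytosol and the mitochondria. TYMS uses a folate-bound carbon to make thymidylate for DNA. Activated and leukaemic T cells are known to draw on this pathway for purines and thymidylate while they divide.

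The cells were Jurkat, a human CD4+ T-cell leukaemia line, which the labels also describe as an ouabain-induced leukemia line. The SCML4 group stably overexpressed SCML4, a Polycomb-related gene, and the EV group was its control line. Both groups were treated with PMA at 100 ng/ml plus ionomycin at 1 µM for 6 h, agents that together stand in for T cell receptor signalling, and no untreated cells are analysed here. Each group has 3 RNA-seq libraries. The labels do not say that these came from separate cultures or how many clones a line holds, so the p-values measure the spread between libraries, which may be technical.

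Reads recovered from the FPKM values, which scale reads by gene length and by library, gave library totals of 8953671 to 10336597 reads. Levels of 1 gene are given below as CPM, reads per 1000000 reads of the library. SCML4 itself had 570, 657 and 506 reads in SCML4 libraries and 7, 2 and 1 in EV libraries, which is 61.0 ± 3.89 CPM against 0.351 ± 0.331 CPM (SD, n = 3 each). Its adjusted p was 0.0619 by limma-trend on log2(FPKM + 1), the test used below, and 1.46e-06 by limma-voom on the recovered reads. SCML4 had only 2.53 to 2.84 FPKM in SCML4 libraries, where adding 1 shrinks the difference. The log2 difference was 1.875 by limma-trend and 7.56 by limma-voom. The T-cell and Jurkat markers were all present, 9 of 9 with at least 10 reads on average, and summed to 2883 to 2966 CPM in SCML4 libraries and 2792 to 2904 CPM in EV libraries. Among them RAG1 was uneven, with 970, 647 and 630 reads in SCML4 libraries and 1859, 656 and 627 in EV libraries. Of 10 markers of other cell types, 9 were in the table, LYZ, HBB, EPCAM and KRT18 were at 0, only COL1A1 averaged 10 reads or more, and the sum was 2.12 to 3.00 CPM in SCML4 libraries and 2.27 to 3.01 CPM in EV libraries. The library that differed most was EV replicate 1. Its score on the first principal component (26.5% of the variance) was -38.6, where the remaining 5 libraries scored 0.35 to 11.6. The Spearman correlation across 13347 genes between GC content and a gene's deviation in a library was -0.52 in EV replicate 1 and 0.05 to 0.30 in the others, with genes not independent of each other.

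All 9 enzyme genes were expressed, from 198 reads (PSPH) to 2400 reads (MTHFD2) in a library, and all passed the filter of a mean FPKM of 0.5. None of the 9 differed between SCML4 and EV cells at an adjusted p under 0.05 by limma-trend on log2(FPKM + 1) with Benjamini-Hochberg adjustment over 15357 genes, where 0% of all genes tested passed. The largest differences among the 9 were in PHGDH and TYMS. PHGDH, which opens serine synthesis, averaged 15.9% more CPM in SCML4 cells, and TYMS, which makes thymidylate, averaged 16.6% more. In these 2 genes every SCML4 library lay above every EV library, as was the case for 6.02% of all genes tested (11.3% in either direction), and no member had all SCML4 libraries below all EV libraries, as 5.27% of all genes tested had. At an unadjusted p under 0.05 the same fit held 781 genes, 5.09% of those tested, and 1 of the 9 members, PHGDH. By limma-voom on the recovered reads it was reached by 746 of 14160 genes, 5.27%, and by 2 of the 9, PHGDH and TYMS. At an adjusted p under 0.05 limma-voom called 1 gene, 0.00706%, which was SCML4, and none of the 9. Because RNA came from bulk cultures, fewer cells expressing a gene and less RNA per cell cannot be told apart.

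**Figure D1:**
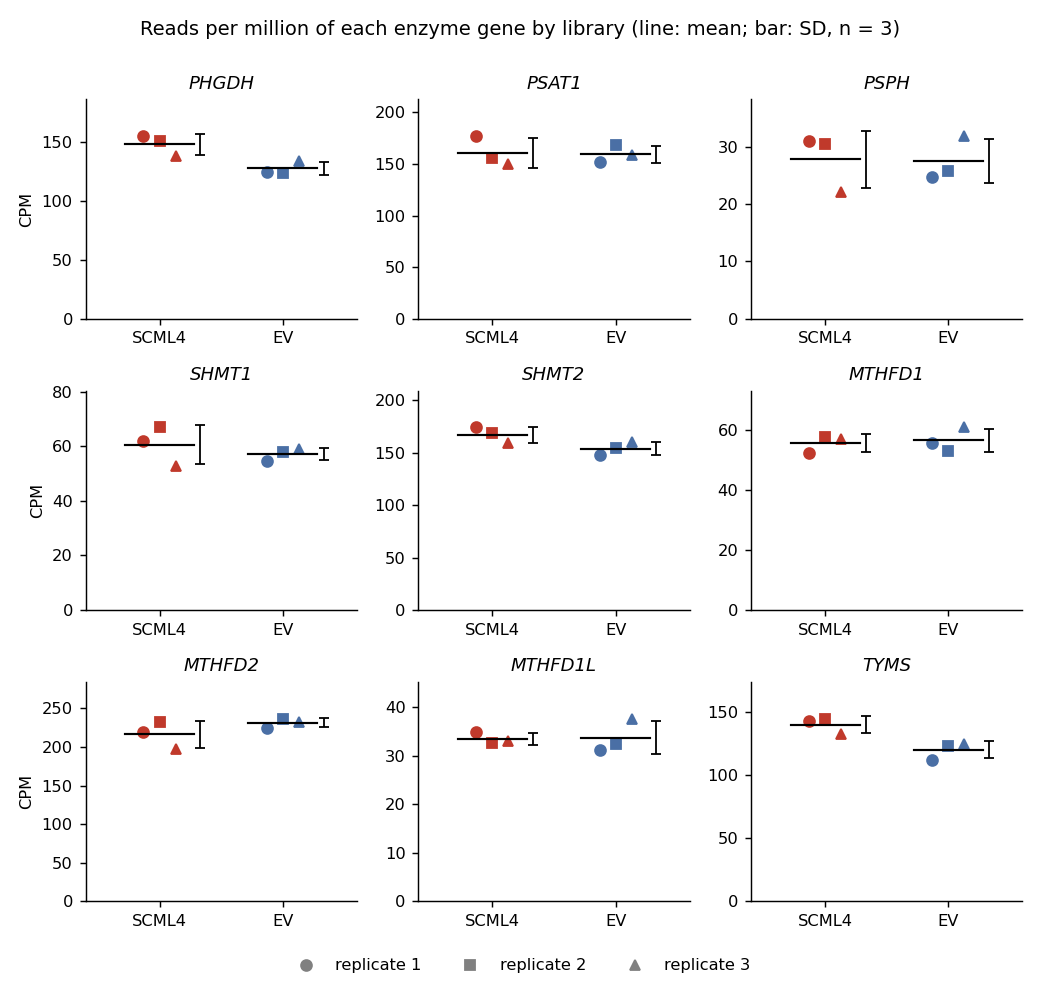
CPM of each of the 9 enzyme genes (vertical axis from 0) in the 3 SCML4 libraries (red, left) and the 3 EV libraries (blue, right); lines are means and bars are SD (n = 3), and the symbol gives the replicate number. For PHGDH and TYMS the SCML4 points all lie above the EV points, and for the other 7 genes the groups overlap.

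The promoters of PHGDH and TYMS, the genes whose groups lay apart, and of PSAT1, the next enzyme after PHGDH, whose groups interleaved, are shown as the 250 bases before the start site from RefSeq on build GRCh38.p14, 5′ to 3′ on the gene's strand. All 3 genes lie on the plus strand, PHGDH at chr1:119711684-119711933, PSAT1 at chr9:78296875-78297124 and TYMS at chr18:657403-657652. Capitals mark the letters searched on both strands: CCAAT (the NF-Y box), CACGTG (the E-box), TGATGNAA (the C/EBP-ATF response element) and the E2F forms TTTGGCGC, TTTCGCGC, TTTCCCGC and TTTGCCGC.
PHGDH: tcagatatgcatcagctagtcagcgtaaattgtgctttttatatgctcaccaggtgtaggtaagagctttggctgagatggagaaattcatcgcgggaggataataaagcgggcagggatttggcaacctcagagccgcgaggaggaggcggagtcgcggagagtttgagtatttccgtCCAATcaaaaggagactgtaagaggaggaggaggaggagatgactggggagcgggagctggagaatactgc
PSAT1: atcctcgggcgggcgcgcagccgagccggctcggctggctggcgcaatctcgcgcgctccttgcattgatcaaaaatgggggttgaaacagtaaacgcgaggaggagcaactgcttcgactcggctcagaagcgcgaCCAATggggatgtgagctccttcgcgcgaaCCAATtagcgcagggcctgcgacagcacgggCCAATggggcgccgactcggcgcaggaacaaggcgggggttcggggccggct
TYMS: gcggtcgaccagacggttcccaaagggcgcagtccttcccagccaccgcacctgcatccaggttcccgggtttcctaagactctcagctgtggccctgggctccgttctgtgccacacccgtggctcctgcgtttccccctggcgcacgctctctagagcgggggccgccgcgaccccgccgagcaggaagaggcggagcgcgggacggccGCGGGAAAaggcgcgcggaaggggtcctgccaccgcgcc
The PHGDH window held 1 CCAAT, its first base 71 bases before the start. The PSAT1 window held 3, at 113, 83 and 52 bases before it. The TYMS window held no CCAAT and had TTTCCCGC on the opposite strand, printed as GCGGGAAA, at 39 bases before the start. RefSeq promoters were matched for 7 of the 9 genes, and not for SHMT2 and PSPH. The table lists 35116 windows for 27305 genes, and a gene with several start sites has several; MTHFD1L has 4 and the other 6 members 1 each. A gene was counted if any of its windows held the letters. CCAAT was in 6 of the 7 members, all but TYMS, and in 37% of all genes (32% of windows). CACGTG was in 2 of the 7, MTHFD1 and MTHFD1L, and in 7.73% of all genes (6.34% of windows). TGATGNAA was in 1, as TGATGCAA in 2 of the 4 windows of MTHFD1L, and in 3.89% of all genes (3.14% of windows). TTTCCCGC was in 1, TYMS, and in 1.7% of all genes (1.39% of windows). The other E2F forms were in none of the 7, and TTTGGCGC was in 0.681%, TTTCGCGC in 0.542% and TTTGCCGC in 0.586% of all genes. These matches are letters in a window and not measured binding.

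PHGDH, 3-phosphoglycerate dehydrogenase, commits 3-phosphoglycerate to serine. Its levels were 155.4, 151.2 and 138.3 CPM in SCML4 libraries and 125.1, 124.2 and 134.5 CPM in EV libraries, averaging 148 ± 8.95 and 128 ± 5.70 CPM (SD, n = 3 each). All 3 SCML4 libraries were higher than all 3 EV libraries, but SCML4 replicate 3 was only 1.03 times EV replicate 3. The log2 difference was 0.21 (95% interval 0.03 to 0.39) with an unadjusted p of 0.0308 and an adjusted p of 0.905 by limma-trend. On recovered reads limma-voom gave 0.21 with an unadjusted p of 0.0196 and an adjusted p of 0.858. Without EV replicate 1 the limma-trend difference was 0.19, with an unadjusted p of 0.0567 and an adjusted p of 0.831. The limma-voom difference was then 0.20, with an unadjusted p of 0.0156 and an adjusted p of 0.618. The libraries varied more than counting alone gives: the SD of log2 CPM was 0.09 in SCML4 and 0.06 in EV, where counting at the mean of 1305 reads gives 0.04.

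PSAT1, the aminotransferase that acts on the product of PHGDH, had 177.1, 155.6 and 149.5 CPM in SCML4 libraries and 151.9, 168.3 and 158.4 CPM in EV libraries. The groups interleaved, SCML4 replicate 1 being the highest library and SCML4 replicate 3 the lowest. Means were 161 ± 14.5 CPM in SCML4 and 160 ± 8.25 CPM in EV (SD, n = 3 each), with a log2 difference of 0.01 (95% interval -0.21 to 0.22). The ratio of PHGDH reads to PSAT1 reads was 0.878, 0.972 and 0.925 in SCML4 libraries and 0.824, 0.738 and 0.849 in EV libraries. It carries over the separation already seen in PHGDH and was not tested.

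PSPH, the phosphatase that releases serine, was the least counted of the serine synthesis genes and the most variable of the 9. It had 31.0, 30.5 and 22.1 CPM in SCML4 libraries and 24.8, 25.8 and 31.9 CPM in EV libraries. The scatter within each group, an SD of log2 CPM of 0.27 in SCML4 and 0.20 in EV, was wider than the 0.09 that counting gives at 262 reads. The highest library was 1.44 times the lowest, and the log2 difference of 0.01 had an interval of -0.35 to 0.37. The ratio of PHGDH reads to PSPH reads was 5.01, 4.96 and 6.25 in SCML4 libraries and 5.04, 4.82 and 4.21 in EV libraries, so that the groups overlapped. PSPHP1, a gene with a pseudogene symbol, had 33 to 62 reads.

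SHMT1 is the cytosolic and SHMT2 the mitochondrial serine hydroxymethyltransferase, which split serine into glycine and a folate-bound carbon. SHMT1 had 62.0, 67.0 and 52.8 CPM in SCML4 libraries and 54.6, 57.8 and 59.2 CPM in EV libraries, with a log2 difference of 0.07 (95% interval -0.17 to 0.32). The SCML4 libraries spanned the EV libraries on either side. SHMT2 had 174.3, 168.5 and 159.2 CPM in SCML4 libraries and 147.6, 154.4 and 160.0 CPM in EV libraries. Its groups overlapped by 1 pair, SCML4 replicate 3 lying just under EV replicate 3. Means of SHMT2 were 167 ± 7.65 CPM in SCML4 and 154 ± 6.20 CPM in EV (SD, n = 3 each), and the log2 difference was 0.12 (95% interval -0.05 to 0.29) with an adjusted p of 0.905 by limma-trend. Once reads were adjusted for GC content and gene length the difference was 0.06. SHMT2 has the highest GC content of the 9, at 56.97% of its longest transcript. Whether GC content bears on its difference was not tested. The ratio of SHMT2 to SHMT1 reads was 2.78 ± 0.249 in SCML4 and 2.69 ± 0.0171 in EV (SD, n = 3 each), so the mitochondrial form was the more counted in all 6 libraries, also per kilobase of exon, by 3.79 to 4.53 times.

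The folate enzymes that carry the unit onward showed no group that lay apart. MTHFD2, the mitochondrial dehydrogenase and cyclohydrolase, was the most counted member, with 219.7, 232.2 and 196.9 CPM in SCML4 libraries and 225.1, 236.5 and 232.1 CPM in EV libraries. SCML4 replicates 1 and 3 were below all EV libraries and SCML4 replicate 2 was within them. The log2 difference of -0.10 (95% interval -0.29 to 0.09) was the lowest of the 9, with an adjusted p of 0.918 by limma-trend. MTHFD1, the trifunctional cytosolic enzyme, had 52.2, 57.5 and 56.9 CPM in SCML4 libraries and 55.4, 53.0 and 60.7 CPM in EV libraries. MTHFD1L, the mitochondrial formate-releasing synthetase, had 34.86, 32.51 and 32.95 CPM in SCML4 libraries and 31.15, 32.45 and 37.60 CPM in EV libraries. Neither separated the groups: the log2 differences were -0.02 (95% interval -0.21 to 0.17) for MTHFD1 and -0.01 (95% interval -0.23 to 0.21) for MTHFD1L. MTHFD2 had 3.904 ± 0.391 reads per read of MTHFD1 in SCML4 and 4.12 ± 0.326 in EV (SD, n = 3 each). Many reads were counted on a pseudogene of MTHFD1, and with the reads of pseudogene copies added to both genes that ratio was 1.12 ± 0.0712 in SCML4 and 1.26 ± 0.00863 in EV (SD, n = 3 each). Without copies the groups overlapped in the ratio. With copies the ratio was lower in every SCML4 library than in every EV library. Its denominator was then mostly pseudogene reads, at 3.25 to 4.44 for each read of MTHFD1. Adding copies was chosen after seeing the data, how often such ratios separate was not counted, and the ratio was not tested.

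TYMS, thymidylate synthase, turns deoxyuridylate into thymidylate with the carbon carried by folate. It had 142.9, 144.8 and 132.5 CPM in SCML4 libraries and 112.3, 123.2 and 124.8 CPM in EV libraries, averaging 140 ± 6.65 and 120 ± 6.78 CPM (SD, n = 3 each). The lowest SCML4 library was 1.06 times the highest EV library, and EV replicate 1 was the lowest of all. The log2 difference was 0.20 (95% interval -0.01 to 0.40), with an unadjusted p of 0.0568 and an adjusted p of 0.905 by limma-trend. On recovered reads limma-voom gave 0.22 (95% interval 0.05 to 0.40) with an unadjusted p of 0.0156 and an adjusted p of 0.858. Without EV replicate 1 the limma-trend difference was 0.16, with an unadjusted p of 0.109 and an adjusted p of 0.867. The limma-voom difference was then 0.18, with an unadjusted p of 0.0229 and an adjusted p of 0.656. The 3' end of TYMS lies over ENOSF1 on the other strand, with 967 exonic bases shared in GENCODE 29, and its start over TYMSOS, with 183. Whether reads were counted by strand is not given in the sources used here, so reads of these genes cannot be told apart there. The same holds for other members that share exonic bases with genes on the other strand. MTHFD2 shares 1324 with SLC4A5 and 295 with AC006030.1, and SHMT1 shares 196 with SMCR8. MTHFD1 shares 756 with AL122035.2, 178 with ZBTB25 and 101 with AL122035.1. SHMT2 shares 427 with AC137834.2 and 33 with NDUFA4L2. Reads were 5 to 14 for SLC4A5, 687 to 791 for SMCR8, 1015 to 1349 for ZBTB25 and 28 to 51 for NDUFA4L2. ENOSF1 had 280 ± 19.9 CPM in SCML4 and 302 ± 11.6 CPM in EV, the lower mean being in SCML4, and TYMSOS had 7.64 ± 0.345 CPM in SCML4 and 6.40 ± 1.28 CPM in EV (SD, n = 3 each).

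**Figure D2:**
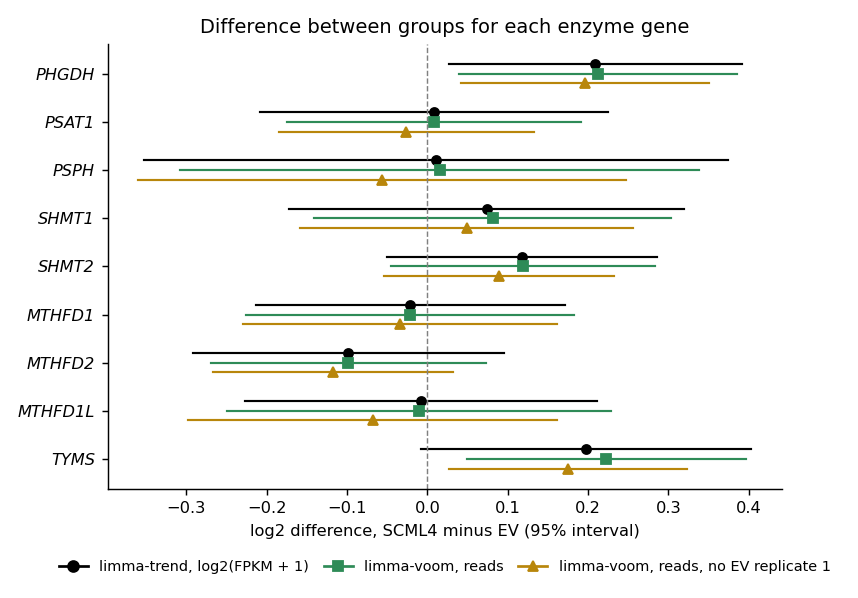
Log2 difference, SCML4 minus EV, of each enzyme gene with its 95% interval, by limma-trend on log2(FPKM + 1) (black), limma-voom on recovered reads (green) and limma-voom without EV replicate 1 (gold). PHGDH and TYMS sit highest, at 0.21 and 0.20 by limma-trend, and MTHFD2 lowest at -0.10.

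The members also varied between libraries of the same group. EV replicate 1 was below the mean of EV replicates 2 and 3 in all 9 genes, by 0.03 to 0.21 on the log2 scale. SCML4 replicate 3 was the lowest SCML4 library for 7 of the 9. The summed level of the 9 genes was 1049, 1040 and 941.1 CPM in SCML4 libraries and 928.1, 975.6 and 999.2 CPM in EV libraries, so that the groups overlapped. The part of EV replicate 1 in the differences of the other members was not tested beyond leaving it out. The median difference of the 9 was 0.01, with 6 above 0 and 3 below. Over all 15357 genes tested the median was 0.0058, with 51.7% above 0. For genes with at least 50 reads the median half-width of the 95% interval was 0.26 on the log2 scale.

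Levels were compared between genes as CPM per kilobase of exon, over all exons that GENCODE 29 gives a gene, with means over the 6 libraries. PSAT1 was highest at 73.2 CPM per kb, then TYMS at 52.7, MTHFD2 at 45.9, SHMT2 at 33.2, PHGDH at 15.0, PSPH at 10.0, SHMT1 at 8.09, MTHFD1L at 6.69 and MTHFD1 at 5.97. PSAT1 was at the 96.6th percentile of 13347 expressed genes on this scale, MTHFD1 at the 43.7th, and the median gene at 7.40. TYMS and MTHFD2 overlapped in their ranges over libraries, 45.5 to 58.6 and 40.4 to 48.6 CPM per kb. So did each neighbouring pair from PSPH down to MTHFD1. Long untranslated exons weigh on this order. Per kilobase of coding sequence MTHFD2 was first at 213 CPM per kb, followed by PSAT1 at 144, TYMS at 138.5, SHMT2 at 104, PHGDH at 78.0, PSPH at 37.0, SHMT1 at 34.4, MTHFD1 at 17.5 and MTHFD1L at 10.9. Here PSAT1 and TYMS overlapped in their ranges over libraries, as did PSPH and SHMT1, and the other neighbours did not. On both scales PSAT1, TYMS, MTHFD2 and SHMT2 were the upper 4. Reads on pseudogene copies were left out of both orders. The low place of MTHFD1 is uncertain, because its copy MTHFD1P1 had 3.25 to 4.44 reads for each read of MTHFD1.

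Reads were also counted on near-identical pseudogenes of these genes, which are copies of the processed transcript elsewhere in the genome. MTHFD1P1, 93.1% identical to MTHFD1 over 2721 bases, had 1711 to 2098 reads, or 3.25 to 4.44 for each read of MTHFD1. Alone it had 206 ± 22.3 CPM in SCML4 and 195 ± 10.0 CPM in EV (SD, n = 3 each). MTHFD2P7, 94.7% identical to MTHFD2 over 977 bases, had 706 to 862 reads, and PSAT1P3, 95.2% identical to PSAT1 over 1113 bases, had 159 to 278. SHMT1P1 had 62 to 103. The level of MTHFD1 in particular is therefore uncertain, since how the authors' counting shared reads between copies is not given in the sources used here. With copies at 90% identity or more over at least 400 bases added, MTHFD1 was 261 ± 19.5 CPM in SCML4 and 251 ± 10.4 CPM in EV, and MTHFD2 was 293 ± 14.7 CPM in SCML4 and 315 ± 12.5 CPM in EV (SD, n = 3 each). PSAT1 was then 188.5 ± 20.7 CPM in SCML4 and 184 ± 12.1 CPM in EV, and SHMT1 was 69.1 ± 4.84 CPM in SCML4 and 65.6 ± 4.04 CPM in EV (SD, n = 3 each). The groups overlapped in all 4 genes, in MTHFD2 only because SCML4 replicate 2 at 302.9 CPM lay just above EV replicate 1 at 301.1 CPM. By limma-voom the log2 differences with copies were 0.05 for MTHFD1, -0.11 for MTHFD2, 0.03 for PSAT1 and 0.08 for SHMT1, with adjusted p values of 0.865 to 0.967.

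**Figure D3:**
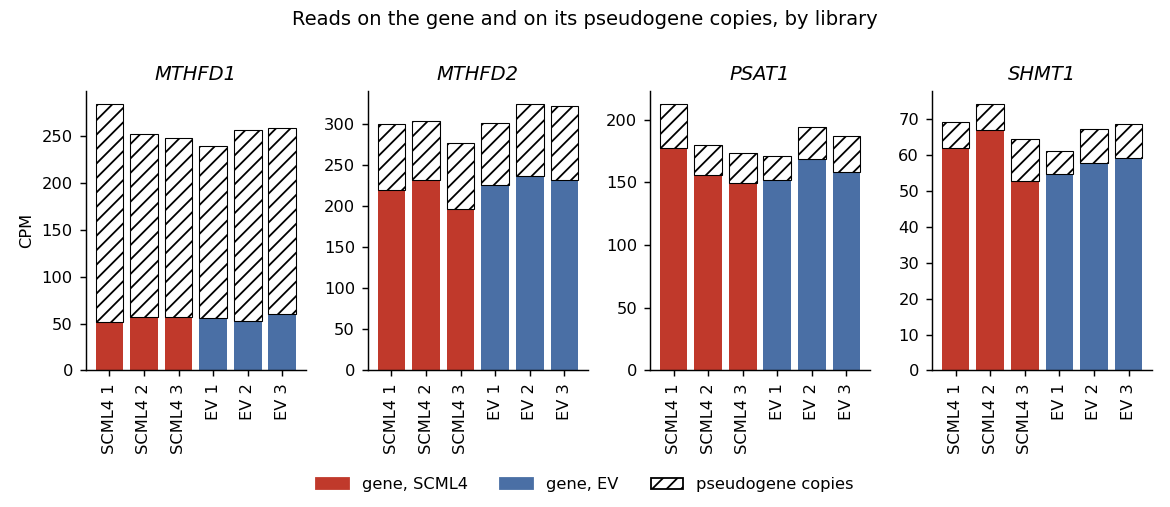
CPM of the 4 enzyme genes with pseudogene copies, by library (3 SCML4 libraries left in red, 3 EV libraries right in blue), with the reads on copies stacked above (hatched). For MTHFD1 the copy MTHFD1P1 took 3.25 to 4.44 times the reads of the gene itself, and for the other 3 the copies took fewer reads than the gene.

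Around these enzymes, 94 genes in 6 lists cover the pathways that feed and use the folate-bound carbon, and 80 of them passed the filter. None of the 80 passed an adjusted p of 0.05 in either direction by limma-trend. In 4 the SCML4 libraries all lay above the EV libraries and in 6 all below, where 6.02% and 5.27% of all genes tested did so. An unadjusted p under 0.05 was reached by 5 of the 80, and by 5.09% of all genes tested. The difference was above 0 in 32 and below 0 in 48, with a median of -0.02 beside 0.0058 over all genes tested. ALDH1L2 and BHMT reached the filter only through their EV libraries and could enter these counts only as lower. Among the other 78 genes, 4 lay apart with SCML4 higher and 5 with SCML4 lower, 4 had an unadjusted p under 0.05, and 32 differences were above 0 and 46 below.

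Among other folate enzymes and folate transport, 12 of 17 genes were tested, with 5 differences above 0, 6 below and a median of -0.02 when ALDH1L2, which passed the filter only through EV libraries, is left out. MTHFD2L, a mitochondrial relative of MTHFD2, had 24.4, 27.7 and 24.1 CPM in SCML4 libraries and 35.7, 30.1 and 30.5 CPM in EV libraries. In it every SCML4 library lay below every EV library, with a log2 difference of -0.33 (95% interval -0.56 to -0.09) and an adjusted p of 0.905 by limma-trend. ALDH1L2, the mitochondrial formyltetrahydrofolate dehydrogenase, had few reads, 1, 8 and 4 in SCML4 libraries and 23, 9 and 12 in EV libraries. In CPM the SCML4 libraries lay below the EV libraries, at 0.444 ± 0.332 CPM in SCML4 and 1.54 ± 0.741 CPM in EV (SD, n = 3 each), with an adjusted p of 0.905 by limma-trend. DHFR2, a dihydrofolate reductase paralogue, had 28.4 ± 1.47 CPM in SCML4 and 32.4 ± 2.84 CPM in EV (SD, n = 3 each), with overlapping groups.

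For glycine cleavage and the transport of serine and glycine, 14 of 19 genes were tested, 7 above 0 and 7 below, with a median of -0.01. GCAT, a mitochondrial enzyme of glycine metabolism, had 160, 159 and 130 reads in SCML4 libraries and 99, 101 and 132 reads in EV libraries. In CPM that was 15.9 ± 1.62 in SCML4 and 11.7 ± 1.73 in EV (SD, n = 3 each), with groups apart in CPM, a log2 difference of 0.36 (95% interval 0.06 to 0.66) and an adjusted p of 0.905 by limma-trend. The amino acid transporters SLC1A4 and SLC38A2 had overlapping groups. SLC1A4 averaged 81.2 ± 5.45 CPM in SCML4 and 72.9 ± 2.57 CPM in EV, and SLC38A2 averaged 355 ± 21.7 CPM in SCML4 and 396 ± 44.4 CPM in EV (SD, n = 3 each). Groups also overlapped for DLD, the dehydrogenase subunit shared by the glycine cleavage system, with 84.6 ± 3.87 CPM in SCML4 and 92.4 ± 5.74 CPM in EV (SD, n = 3 each).

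In the methionine cycle and transsulfuration, 12 of 13 genes were tested. Without BHMT, which passed the filter only through EV libraries, 2 differences were above 0 and 9 below, with a median of -0.04. MAT2A, which makes S-adenosylmethionine, had 520.5, 529.9 and 509.7 CPM in SCML4 libraries and 581.3, 583.5 and 561.8 CPM in EV libraries. The groups lay apart with little scatter, and the log2 difference was -0.15 (95% interval -0.26 to -0.04) with an adjusted p of 0.905 by limma-trend. CBS, which starts transsulfuration, also had its groups apart, at 5.96 ± 0.0650 CPM in SCML4 and 6.62 ± 0.429 CPM in EV (SD, n = 3 each). Its reads were few, 54, 61 and 54 in SCML4 libraries and 59, 61 and 67 in EV libraries. The log2 difference was -0.12 with an unadjusted p of 0.251 by limma-trend, where counting gives an SD of log2 CPM of 0.19. MTR, methionine synthase, had 232 ± 10.6 CPM in SCML4 and 250 ± 14.2 CPM in EV (SD, n = 3 each), with overlap. BHMT had 0 reads in every SCML4 library, which allows up to 0.290 to 0.335 CPM by library for counting error, and 1, 1 and 0 reads in EV libraries, too few to compare.

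De novo purine synthesis takes formyl groups for the ring from folate. Of the 12 genes tested in that list, 3 were above 0 and 9 below, with a median of -0.04. IMPDH2, which leads to guanine nucleotides, had its groups apart at 139 ± 2.72 CPM in SCML4 and 130 ± 1.12 CPM in EV (SD, n = 3 each), a log2 difference of 0.09. The synthesis enzymes PAICS, PPAT and ADSL had overlapping groups. PAICS averaged 620.8 ± 67.6 CPM in SCML4 and 675.5 ± 23.0 CPM in EV, PPAT 105 ± 8.29 CPM in SCML4 and 115 ± 12.2 CPM in EV, and ADSL 35.0 ± 2.63 CPM in SCML4 and 40.9 ± 3.83 CPM in EV (SD, n = 3 each). Thymidylate and deoxynucleotide supply had 12 genes tested, 5 above 0 and 7 below, with a median of -0.01. DCTD, the deaminase that supplies the substrate of TYMS, lay apart with SCML4 higher, at 118.5 ± 0.554 CPM in SCML4 and 112 ± 7.20 CPM in EV (SD, n = 3 each). Its lowest SCML4 library was only 1.006 times its highest EV library. The log2 difference of DCTD was 0.08 by limma-trend and 0.02 without EV replicate 1. RRM2B, a ribonucleotide reductase subunit, lay apart with SCML4 lower, at 45.1 ± 0.995 CPM in SCML4 and 50.9 ± 1.62 CPM in EV, and so did UMPS of pyrimidine synthesis at 74.2 ± 4.09 CPM in SCML4 and 81.75 ± 3.75 CPM in EV (SD, n = 3 each). RRM2, the S-phase subunit of ribonucleotide reductase, overlapped at 438 ± 13.7 CPM in SCML4 and 414 ± 16.5 CPM in EV (SD, n = 3 each). The adjusted p of these genes was at least 0.905 by limma-trend.

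ATF4 and MYC are known to drive several of the 9 enzymes, and 18 genes, those regulators with other ATF4 targets, were all tested. Of these 10 were above 0 and 8 below, the median was 0.04, and in none did the groups lie apart. ATF3, a stress-induced factor, had 183, 170 and 160 reads in SCML4 libraries and 117, 156 and 142 reads in EV libraries, a log2 difference of 0.31 (95% interval -0.04 to 0.66). SLC7A11, the cystine transporter, had 13.4 ± 5.18 CPM in SCML4 and 15.7 ± 1.88 CPM in EV (SD, n = 3 each). CHAC1, which breaks down glutathione, had 3.09 ± 0.366 CPM in SCML4 and 2.48 ± 0.804 CPM in EV, and PCK2, the mitochondrial phosphoenolpyruvate carboxykinase, had 19.97 ± 3.21 CPM in SCML4 and 17.6 ± 3.02 CPM in EV (SD, n = 3 each). All 4 had overlapping groups.

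**Figure D4:**
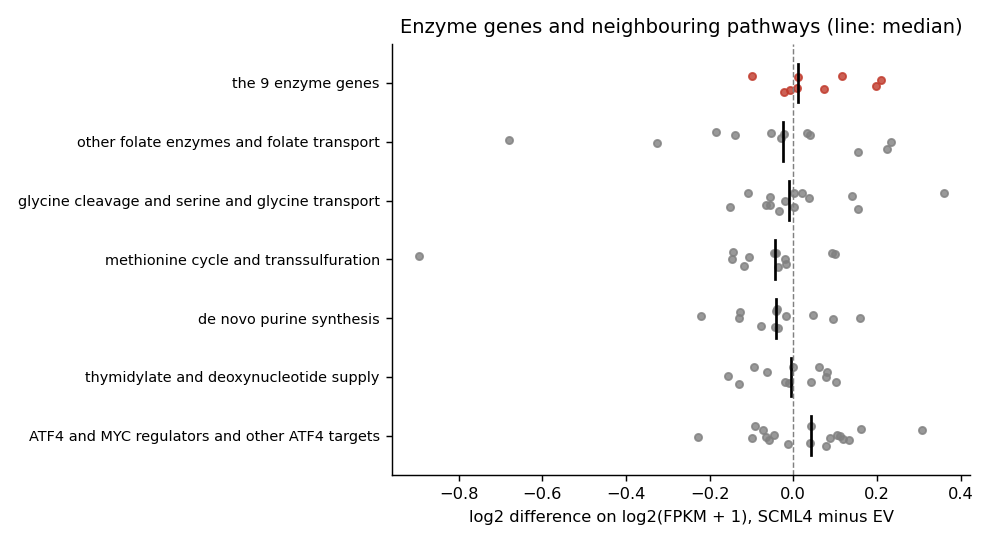
Log2 difference on log2(FPKM + 1), SCML4 minus EV, of the 9 enzyme genes (red) and of the tested genes of 6 neighbouring lists (grey), with the median of each as a line. Medians lie between -0.04 and 0.04. The lowest point, BHMT in the methionine list, rests on 2 reads in all, and the next, ALDH1L2, on 1 to 23 reads a library.

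For each member the gene with the most similar pattern over the 6 libraries was taken among 11407 genes averaging 50 reads or more, by the root mean square difference of log2(CPM + 1) centred on each gene's mean. PHGDH was nearest to ZFP64 at 0.02, against its own spread of 0.12, and TYMS to RHBDD2 at 0.02, against 0.13. PSAT1 was nearest to PEX19, PSPH to WDR75, SHMT1 to SORD, SHMT2 to AP2M1, MTHFD1 to MTFR2, MTHFD2 to USP32 and MTHFD1L to TMEM161BP1, at distances of 0.01 to 0.03. Each is the best match of 11407 genes over only 6 libraries, so a small distance comes with the search. For PHGDH and TYMS it was below the SD of 0.04 that counting gives. Shared regulation was not tested.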

How the data were processed

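The authors' deposited table gives FPKM for 39012 genes in 6 libraries, 1 column per library, per the file headers. Per the labels' protocols, a SMARTer mRNA-seq kit was used on TRIzol-extracted RNA. The submitters' processing notes name FastQC, STAR, SAMtools and hg19. Not given in the sources used here are the counting tool, the annotation, the strand setting and the lengths used. Titles of the samples gave groups and replicate numbers.

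Each gene's FPKM steps by the worth of 1 read, so reads were recovered for all 23897 genes above 0 (100%). A distance of up to 0.05 from a whole read was allowed. The smallest length that fitted was taken, so the true reads of a gene with few reads could be a common multiple of those given. The lengths implied by the FPKM are not those of the named genes (for PHGDH 2360 bases implied, against 9217 exonic bases), so levels use CPM of these reads. The pseudocount and the filter still act on FPKM. Floors of 3 reads cover counting error only.

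SCML4 minus EV was fitted on log2(FPKM + 1) with limma-trend (limma 3.58.1, R 4.3.3) over the 15357 genes whose FPKM averaged 0.5 or more. The p-values were adjusted by Benjamini-Hochberg and called under 0.05. Log2 differences are on this scale unless limma-voom on reads (mean of at least 10) is named. The scale understates changes of genes with low FPKM, which, given the implied lengths, need not have few reads. TYMS had 7.08 to 9.13 FPKM at 1082 to 1497 reads a library. Scripts were tested on simulated data. Same-numbered libraries did not deviate together, so replicates were not paired. GENCODE 29 gave lengths, overlaps and, with blastn 2.17.0, copies. The members and the 6 lists were chosen with earlier results of these data known. Named genes are the members, SCML4, up to 4 genes of smallest unadjusted p per list and the nearest gene of each member. Beside this rule, some of the copies, overlapping genes and cell type markers were named. A gene that this rule names is not reported here. Other scalings, filters, pseudocounts, weights and left-out libraries were tried. No library was a duplicate: within groups, chi-square values per gene were 2.61 to 11.1.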

Additional observations from a re-analysis of the deposited data

How the results depend on the processing

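No member and no pathway list gene passed an adjusted p of 0.05 under any of the 22 alternatives run (fewer where a gene fell below a filter), and PHGDH, SHMT1, SHMT2, MTHFD2 and TYMS kept their direction in all of them. The range was 0.17 to 0.26 for PHGDH (adjusted p 0.347 to 0.989) and 0.16 to 0.23 for TYMS (adjusted p 0.366 to 0.989), by limma. Among all genes, none was called in the main comparison (0) or with any 1 library left out (0 to 0). Calls numbered 7 without a filter, 4 without the intensity trend, 1 with library weights, 1 by limma-voom, 14 by weighted limma-voom, 1 on log2(CPM + 1), 3 after the GC and length correction and 1 at an adjusted p under 0.1. Chosen after seeing the data, limma-voom without EV replicate 1 called 13 and limma-voom with copies added called 1. With replicate number as a block, limma-trend called 0 genes, 0 members and 0 list genes; the same-number correlations of deviations were -0.019, -0.047 and -0.010.

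Small differences changed sign. PSAT1 was -0.013 under median scaling, -0.0050 under quantile normalization, -0.027 with library weights, -0.024 by weighted limma-voom, -0.026 by limma-voom without EV replicate 1 and -0.061 to 0.056 with 1 library left out. PSPH was -0.0073 under median scaling, -0.0069 under quantile normalization, -0.024 after the GC and length correction, -0.056 by limma-voom without EV replicate 1 and -0.060 to 0.142 with 1 library left out. MTHFD1 was 0.055 with copies added and -0.065 to 0.033 with 1 library left out, and MTHFD1L was -0.062 to 0.070. The cause was not tested. The SD of log2 CPM that counting gives ranged from 0.03 for MTHFD2 to 0.09 for PSPH.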
